A study of Mus musculus with 6 samples.

Results

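The proteasome is the large protease that degrades proteins marked with ubiquitin. The genes described here are those of the deposited gene tables whose symbol begins with Psm followed by a letter from a to g and a digit, which name the subunits of the proteasome, its activators, its inhibitor and its assembly chaperones. Psmc3ip, a meiotic recombination gene that carries a similar symbol, was left out. The rule found 49 of 24411 genes, of which 48 passed the filter on low counts and were tested; Psmb11 was not. The tissue was whole testis of age-matched C57BL/6 mice, a standard inbred strain, and the ages are not given in the sources used here. Of 6 RNA sequencing libraries, 3 came from animals labelled MRP5-/- and MRP9-/- (labelled DKO below, for double knockout) while the other 3 came from wildtype animals (labelled WT). Abcc5 encodes MRP5 and Abcc12 encodes MRP9, both ABCC membrane transporters. How the alleles were made is not given in the sources used here.

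The core of the proteasome is a barrel of stacked rings. The outer rings are built of alpha subunits, which gate entry, and the inner rings of beta subunits, of which Psmb5, Psmb6 and Psmb7 carry the proteolytic sites. A regulatory particle with a ring of ATPases (Psmc genes) and non-ATPase subunits (Psmd genes) binds ubiquitinated proteins, unfolds them and feeds them into the core. Male germ cells also make a form known as the spermatoproteasome. In it Psma8 takes the place of the ubiquitous alpha subunit Psma7, and the activator Psme4 can cap the core; Psma8 is needed for male meiosis in the mouse and Psme4 for normal spermatogenesis.

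The libraries labelled DKO held 42673615 to 67131103 expected counts and those labelled WT 26753721 to 31745969, without overlap. The mean fragment length, recovered from the deposited lengths, did not overlap either, at 275 to 317 bases in libraries labelled DKO and 230 to 258 in those labelled WT. Abcc12 was lower in libraries labelled DKO (log2 fold change -1.02, edgeR quasi-likelihood test, adjusted p = 0.000307), whereas Abcc5 was higher (log2 fold change 0.56, adjusted p = 0.0225), which goes against the label, so groups are named by their labels throughout. All 6 libraries carried abundant germ cell transcripts: summed over the 11 spermatocyte markers they held 2150 to 2290 TPM (RSEM's transcript level, scaled for length and library size), and over the 7 elongating spermatid markers 103519 to 119324 TPM.

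Testis transcript levels of the proteasome genes were uneven, also among subunits that each occupy 1 position of the same particle. Levels are compared between genes in TPM, as the median and range over all 6 libraries. Among the alpha genes, Psma6 stood highest at a median of 455 TPM (range 435 to 474), and Psma8 came next at 145 TPM (126 to 175). The other alpha genes followed in the order Psma4, Psma3, Psma2, Psma7, Psma5 and Psma1, the last at a median of 39.2 TPM (34.0 to 43.8). Neighbours in this order overlapped in range from Psma4 down to Psma5, whereas Psma6, Psma8 and Psma1 did not overlap their neighbours. Psma6 thus exceeded Psma1 by 11.6-fold in median TPM.

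The constitutive beta genes spanned a narrower range, from 59.3 TPM for Psmb1 to 229 TPM for Psmb6, a ratio of 3.86. The catalytic subunits Psmb6 and Psmb7 had the highest levels (Psmb7, median 182 TPM), while the third catalytic gene, Psmb5, had a median of 78.1 TPM. The ATPases differed most among the standard subunits. Psmc3 had 948 TPM (921 to 975), the highest level of any proteasome gene, and Psmc2 467 TPM (464 to 481), while Psmc6 had 41.4 TPM (38.9 to 55.6), a ratio of 22.9 between the highest and the lowest gene of 1 ring. Exons of Psmc3 overlap those of Slc39a13 on the opposite strand in the GENCODE annotation, and strand handling of the counting is not given in the sources used here. Among the 11 non-ATPase genes, Psmd8 and Psmd2 were highest with medians of 310 and 302 TPM. Psmd14, which encodes the deubiquitinase of the regulatory particle, was lowest with 37.9 TPM.

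**Figure D1:**
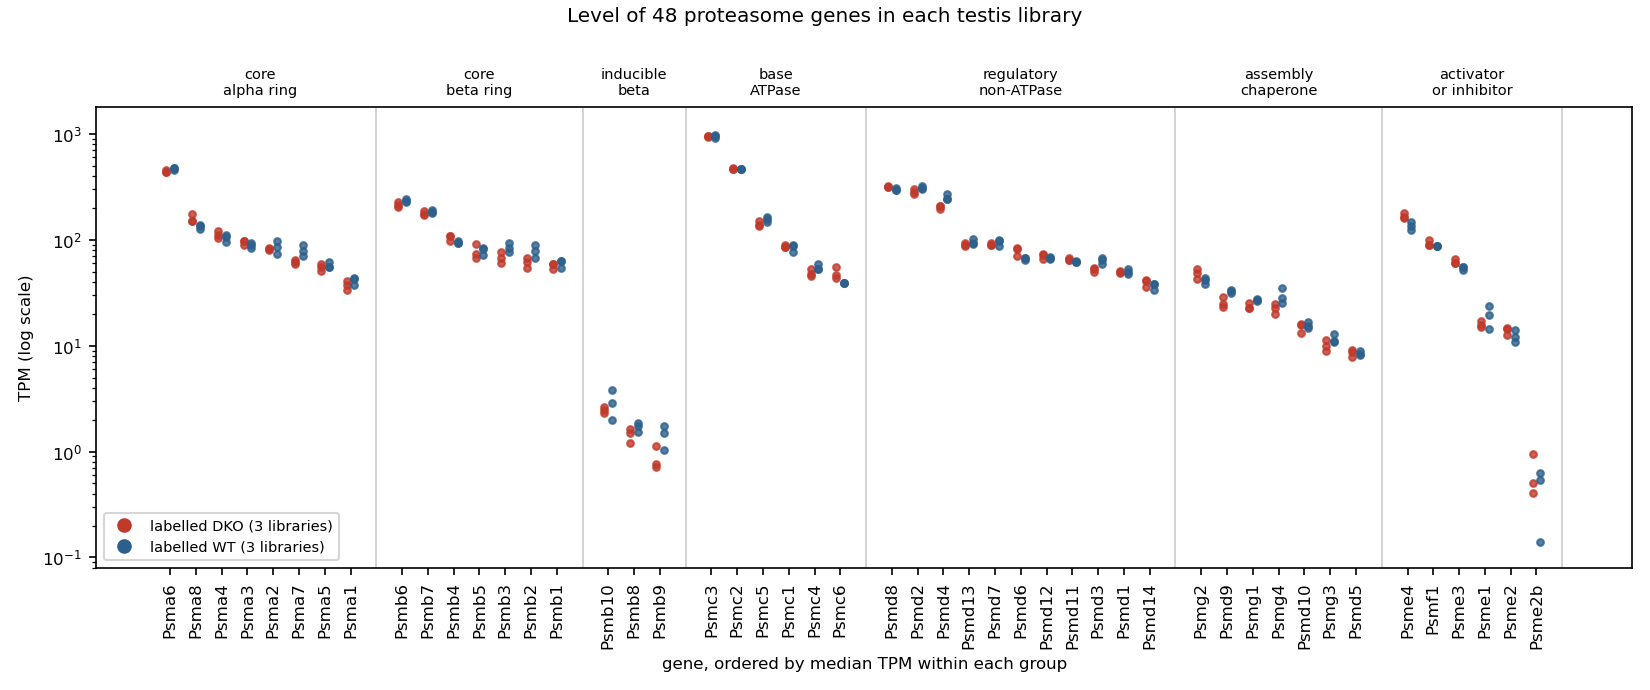
TPM on a log scale for 48 proteasome genes, grouped by role and ordered by median level within each group; each point is 1 library, red for labelled DKO and blue for labelled WT. Psmb11, with 0 TPM in 2 libraries, cannot be drawn on a log axis and is not plotted. Psmc3, Psmc2 and Psma6 lie highest, the inducible beta genes and Psme2b lowest, and the spread between libraries is small beside the spread between genes.

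Each proteasome gene was then compared between the genotypes, which asks whether the testis transcript levels of the degradation machinery differ when both transporters are labelled as missing. The fit was made over all 17110 tested genes with the edgeR quasi-likelihood test, and a gene was called at a Benjamini-Hochberg adjusted p under 0.05. A fold change divides the normalized count under the DKO label by that under the WT label. Of the 48 tested proteasome genes, 9 were called, 3 higher and 6 lower in libraries labelled DKO, which is 18.8%; over all tested genes 10.8% were called, 5.75% higher and 5.1% lower. With DESeq2 size factors in place of TMM scaling, 2 were called higher and 7 lower, beside 11.1% of all tested genes in either direction. The median log2 fold change of the tested proteasome genes was -0.06, beside -0.0042 for all tested genes, with 21 genes above 0 and 27 below. Normalized counts did not overlap between the groups for 29 of the 48 genes (60.4%), 14 higher and 15 lower, beside 35.9% of all tested genes. An unadjusted p under 0.05 was found for 15 proteasome genes, beside 31.7% of all tested genes. The summed level of all 49 genes was 5399 ± 118 TPM in libraries labelled DKO and 5511 ± 172 TPM in those labelled WT (SD, n = 3 each), with overlapping ranges. The calls were sensitive to single libraries. None of the proteasome genes was called without DKO replicate 1, WT replicate 2 or WT replicate 3. Without DKO replicate 2, 2 were called. In this order, these fits called 11, 13, 7 and 655 of all tested genes. An unadjusted edgeR p under 0.05 was found in them for 13, 14, 13 and 14 proteasome genes. Over all tested genes it was found for 3571 of 17097, 3793 of 17403, 4326 of 17431 and 4783 of 17116. No proteasome gene was called when mean fragment length was a covariate, a fit that called 1 of all tested genes. An unadjusted edgeR p under 0.05 was found there for 0 proteasome genes, beside 545 of all 17110 tested. None was called either when trends on length and GC content were removed, beside 552 of all 16840 tested. There 16 proteasome genes had an unadjusted edgeR p under 0.05, beside 3770 of all tested. Exons of 9 proteasome genes overlap those of another gene, and none of these 9 was called.

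**Figure D2:**
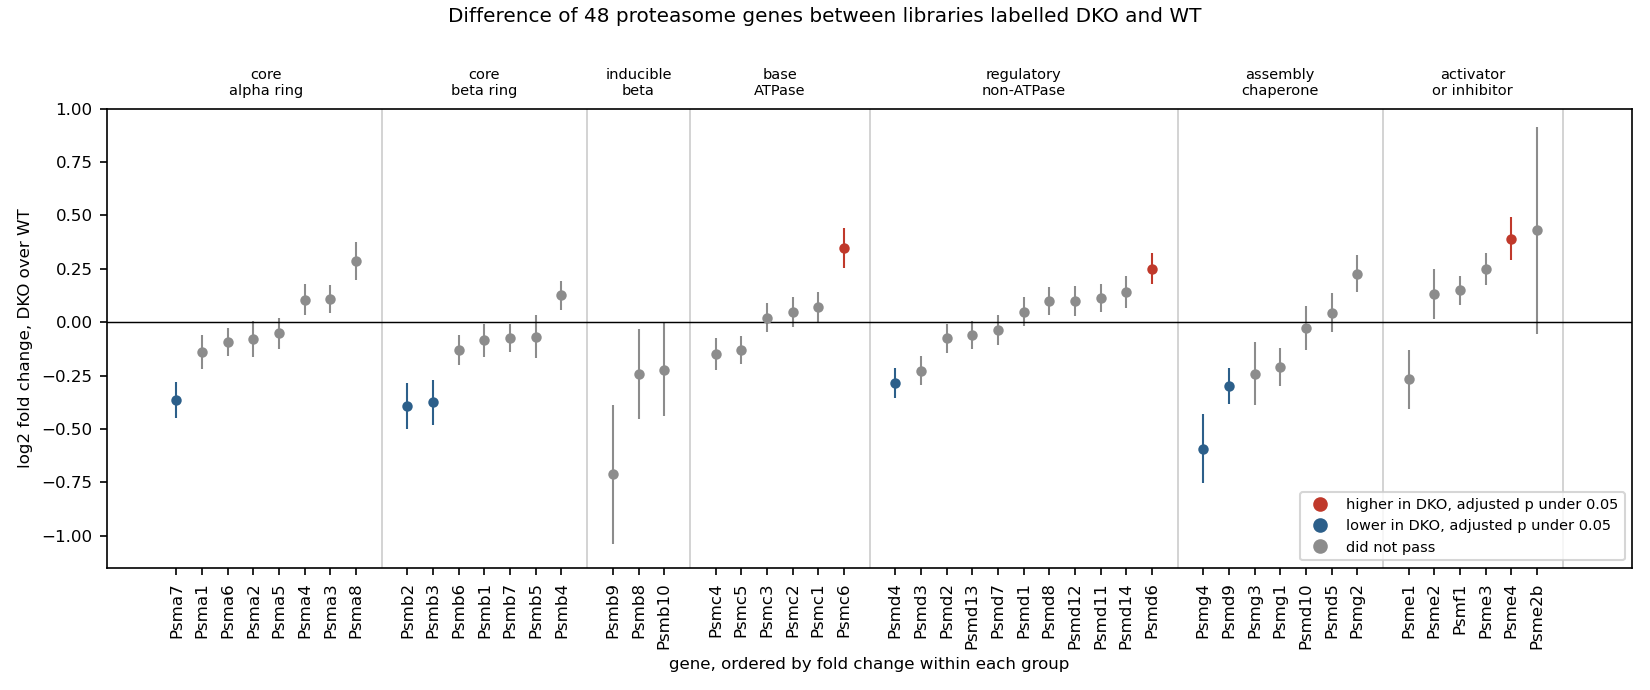
Log2 fold change of labelled DKO over labelled WT for the 48 tested proteasome genes, by role; points are edgeR estimates, bars are 1 standard error, and colour marks an adjusted p under 0.05 (red higher, blue lower). The 6 genes called lower are Psma7, Psmb2, Psmb3, Psmd4, Psmd9 and Psmg4, and the 3 called higher are Psmc6, Psmd6 and Psme4.

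Psma8 and Psma7 are alternative subunits for the same position of the alpha ring, and their levels differed in opposite directions. Psma8, the germ cell form, had 175, 151 and 152 TPM in libraries labelled DKO and 139, 126 and 136 TPM in those labelled WT. Psma7, the ubiquitous form, had 59.6, 64.5 and 62.2 TPM in libraries labelled DKO against 71.1, 88.8 and 78.0 TPM in those labelled WT. All 3 libraries labelled DKO were above all 3 labelled WT for Psma8 and below them for Psma7. Psma7 was called lower, at 0.777 of the WT level (log2 fold change -0.36, SE 0.0864; edgeR adjusted p = 0.0336). Psma8 missed the threshold (log2 fold change 0.29, SE 0.0886; edgeR adjusted p = 0.0568). Psma8 passed in 4 of 16 alternatives: DESeq2 (adjusted p = 0.0209), no count filter (edgeR adjusted p = 0.0450), and without DKO replicate 3 (0.0273) or WT replicate 1 (0.0499). Without DKO replicate 1, DKO replicate 2, WT replicate 2 or WT replicate 3 its edgeR adjusted p was 0.201, 0.104, 0.204 and 0.141. With the length and GC trends removed, Psma8 had a log2 fold change of 0.11 and Psma7 one of -0.28 (edgeR adjusted p = 0.324 and 0.0647). With mean fragment length as a covariate the sign of Psma8 turned, to -0.05, and Psma7 stayed negative.

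Psma8 was the more abundant of the pair in all 6 libraries, by 1.42- to 2.94-fold in TPM. Its share of the summed Psma7 and Psma8 level was 74.7%, 70.1% and 71.0% in libraries labelled DKO and 66.1%, 58.7% and 63.6% in those labelled WT. The mean share was 71.9% ± 2.43 against 62.8% ± 3.78 (SD, n = 3 each), a difference of 9.08 percentage points without overlap between the groups. The exact two-sided permutation test gave p = 0.1, which is as low as 3 against 3 libraries can give, and 0.4 after adjustment over the 4 shares tested. Neither gene had a fractional count in any library, so no fragments were divided between them or with other genes. Psma8 lies on chromosome 18, and Psma7 on chromosome 2 (180036367 to 180042464, minus strand, GRCm38).

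**Figure D3:**
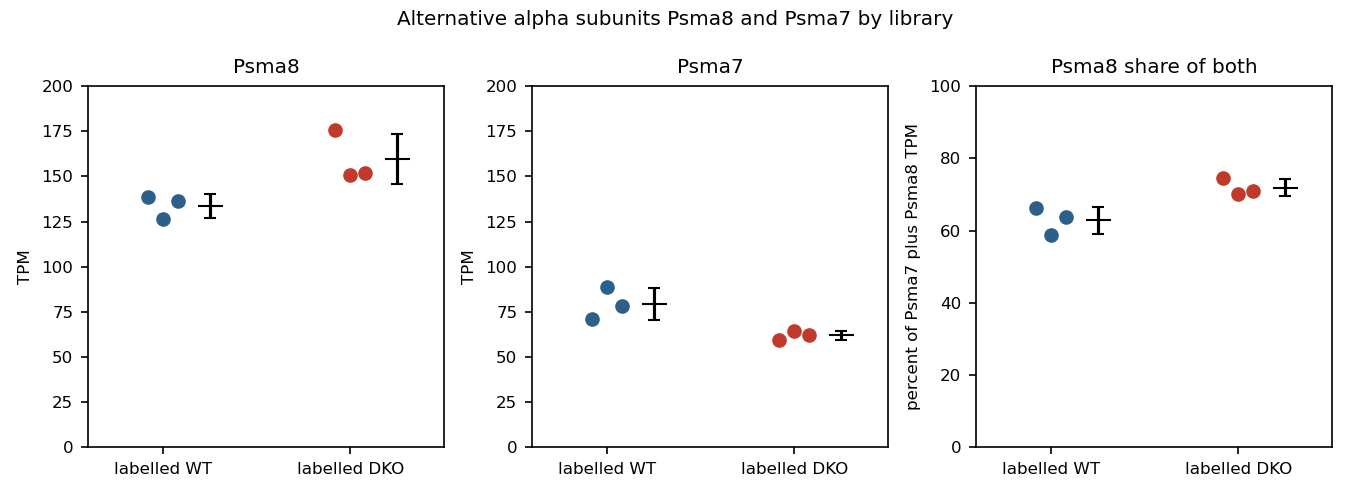
Levels of Psma8 and Psma7 in TPM and the share of Psma8 in their sum in percent; points are single libraries, and the bar beside each group is the mean with 1 SD (n = 3). Psma8 is higher and Psma7 lower in every library labelled DKO than in any labelled WT, and the mean share is 71.9% against 62.8%.

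Because these are bulk tissue libraries, fewer cells of a type and less RNA per cell cannot be told apart. Beside the difference in Psma8, the 11 spermatocyte markers had a median log2 fold change of 0.31, with 7 above 0. Of the 11, 2 were called, both higher (Sycp3 at 0.67 and Hormad1 at 0.54), though the TPM of Hormad1 overlapped between the groups. Hspa2 was lower without overlap but not called (log2 fold change -0.20, edgeR adjusted p = 0.0881), and Tex101, Piwil1 and Ccna1 were also below 0. The summed level of the 11 markers overlapped between the groups (2150 to 2227 against 2175 to 2290 TPM). The 10 markers of Sertoli cells, the somatic cells that support germ cells, had a median of -0.25 with 4 called lower. Their summed level was 1510 to 1885 TPM in libraries labelled DKO and 1963 to 2480 TPM in those labelled WT. Clu and Defb19 were the largest parts of this sum. Clu had a mean of 813 against 968 TPM, with overlap, and was not called. Defb19, with a transcript of 394 bases, had 558 against 877 TPM and was called lower. Wt1 was the only 1 of the 10 above 0, at 0.08. The 8 markers of Leydig cells, which make steroids between the tubules, had a median of -0.49 with 3 called lower. Their summed levels overlapped, at 864 to 1521 against 1499 to 3146 TPM. Insl3 alone had 582 to 1193 against 1215 to 2576 TPM of these and carried fractional counts. Hsd3b1 was the only 1 of the 8 above 0, at 0.21. None of these markers was at 0 in all libraries, and their part in the differences of the proteasome genes was not tested. For the other lists, the median log2 fold changes were 0.02 for spermatogonia, 0.09 for round spermatids, -0.16 for elongating spermatids, -0.07 for endothelial cells and -0.31 for peritubular myoid cells, with 0, 0, 2, 0 and 1 genes called, all lower. The summed level of the 5 peritubular markers was 64.3 to 75.2 TPM in libraries labelled DKO and 75.4 to 111 TPM in those labelled WT.

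The remaining alpha genes were not called. Psma3 and Psma4 had log2 fold changes of 0.11 each, and Psma1, Psma2, Psma5 and Psma6 lay between -0.14 and -0.05. For Psma6, the most abundant alpha gene, the levels were 436, 435 and 454 TPM in libraries labelled DKO against 456, 472 and 474 TPM (log2 fold change -0.09, SE 0.0656; edgeR adjusted p = 0.350). Its groups did not overlap, although the difference was small. The summed level of the 8 alpha genes was 1044 ± 31.4 TPM in libraries labelled DKO and 1058 ± 40.6 TPM in those labelled WT (SD, n = 3 each).

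Among the constitutive beta genes, 2 structural subunits without a proteolytic site were called lower. Psmb2 had 54.2, 62.2 and 66.8 TPM in libraries labelled DKO and 67.4, 89.0 and 78.9 TPM in those labelled WT (log2 fold change -0.39, SE 0.108; edgeR adjusted p = 0.0430). Psmb3 had 60.7, 66.8 and 76.5 TPM against 76.7, 93.8 and 82.9 TPM (log2 fold change -0.38, SE 0.106; edgeR adjusted p = 0.0460). For both genes the highest library labelled DKO (replicate 3) came close to the lowest labelled WT (replicate 1). With an offset from the effective lengths (the transcript length open to fragments of a library's size) neither passed the threshold, at -0.31 for Psmb2 and -0.26 for Psmb3 (edgeR adjusted p = 0.0610 and 0.0814). With mean fragment length as a covariate both turned sign, to 0.05 and 0.06.

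The catalytic subunits were not called. Psmb5 had a log2 fold change of -0.07, Psmb6 of -0.13 and Psmb7 of -0.07, with standard errors of 0.0995, 0.0703 and 0.0658. Their levels in TPM were 77.5 ± 11.7 against 79.4 ± 6.72 for Psmb5, 215 ± 11.7 against 234 ± 5.52 for Psmb6 and 178 ± 9.29 against 185 ± 6.92 for Psmb7 (DKO label first; mean ± SD, n = 3 each). Psmb4 was the only beta gene of this group with a fold change above 0, at 0.13 (SE 0.0681; edgeR adjusted p = 0.223). Each of Psmb5, Psmb6 and Psmb7 had a fold change above 0 under at least 1 alternative. Exons of Psmb5 overlap the microRNA gene Mir686, and those of Psmb7 overlap Nek6 on the opposite strand.

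The inducible beta genes replace the catalytic subunits in the immunoproteasome, a form made by immune cells and under interferon. They had low counts in these testes. Psmb8 had 36 to 65 expected counts in libraries labelled DKO and 27 to 38 in those labelled WT. Psmb9 had 11 to 27 and 12 to 21 counts, and Psmb10 had 72 to 111 and 42 to 84. In TPM, Psmb8 reached 1.45 ± 0.216 against 1.72 ± 0.178, Psmb9 0.867 ± 0.220 against 1.42 ± 0.350, and Psmb10 2.45 ± 0.160 against 2.89 ± 0.915 (DKO label first; mean ± SD, n = 3 each). The groups overlapped for all 3 genes. Psmb9 had the most negative fold change of the tested proteasome genes, at -0.71 on the log2 scale, with the second-largest standard error (0.324; edgeR adjusted p = 0.156). Its exons overlap those of Tap1 on the opposite strand.

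Each inducible subunit formed a small share of the pair it makes with its constitutive counterpart. Psmb8 made up 1.85% ± 0.270 of Psmb5 plus Psmb8 in libraries labelled DKO and 2.12% ± 0.0994 in those labelled WT (SD, n = 3 each; exact permutation p = 0.3). The share of Psmb9 in Psmb6 plus Psmb9 was 0.399% ± 0.0813 against 0.600% ± 0.136 (exact permutation p = 0.2). For Psmb10 in Psmb7 plus Psmb10 it was 1.36% ± 0.0936 against 1.53% ± 0.444 (exact permutation p = 0.6, two-sided as for the others; adjusted over the 4 shares, 0.4, 0.4 and 0.6). None of these 3 differences passed the test. The 12 immune cell markers, which include Cd74, H2-Ab1 and Lyz2, summed to 122 to 134 TPM in libraries labelled DKO and 116 to 172 TPM in those labelled WT, with a median log2 fold change of -0.10 and none called; none of them was at 0 in all libraries, and their part in these levels was not tested. Psmb11, the beta subunit of the thymus, had 0, 5 and 7 counts in libraries labelled DKO and 0, 2 and 1 in those labelled WT. A count of 0 allows up to 3 counts, or 0.0703 CPM (counts scaled for library size) in DKO replicate 1 and 0.112 in WT replicate 1, by counting error only.

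Of the 6 ATPases, 1 was called. Psmc6 had 55.6, 43.9 and 46.3 TPM in libraries labelled DKO and 39.0, 38.9 and 39.0 TPM in those labelled WT. All libraries labelled DKO were above the narrow range of the others, and DKO replicate 1 was farthest (log2 fold change 0.35, SE 0.0917; edgeR adjusted p = 0.0394). Psmc3 and Psmc2, the most abundant ATPases, differed little, with log2 fold changes of 0.02 and 0.05 (SE 0.0684 and 0.0700). With the length and GC trends removed, Psmc6 had a log2 fold change of 0.02 (edgeR adjusted p = 0.899), and with mean fragment length as a covariate 0.0098.

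Among the 11 non-ATPase subunits, 1 was called in each direction. Psmd4, a receptor that binds ubiquitin chains, had 196, 209 and 207 TPM in libraries labelled DKO and 241, 270 and 245 TPM in those labelled WT, a clear gap between the groups. It was called lower at 0.822 of the WT level (log2 fold change -0.28, SE 0.0703; edgeR adjusted p = 0.0358). Psmd4 was the proteasome gene that passed the threshold in the most alternatives, 11 of 16, and the only one called by limma on log2(TPM + 1). Its log2 fold change was -0.16 with the length and GC trends removed and -0.18 with mean fragment length as a covariate (edgeR adjusted p = 0.118 and 0.999). Psmd6, a lid subunit, had 82.2, 70.5 and 83.0 TPM against 65.0, 67.4 and 67.7 TPM and was called higher (log2 fold change 0.25, SE 0.0721; edgeR adjusted p = 0.0482). It passed the threshold in 5 of 16 alternatives, and in 0 of those that left out a library. Psmd3, another lid subunit, had no overlap between the groups but missed the threshold (edgeR adjusted p = 0.0526; log2 fold change -0.23, SE 0.0681). The other 8 had log2 fold changes between -0.08 and 0.14. The summed level of the 11 genes was 1341 ± 33.4 TPM against 1402 ± 51.7 TPM (DKO label first; mean ± SD, n = 3 each).

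The assembly chaperones are not part of the finished proteasome; Psmg genes act on the alpha ring, and Psmd5, Psmd9 and Psmd10 on the base of the regulatory particle. Psmg4 had 19.9, 24.5 and 22.8 TPM in libraries labelled DKO and 28.4, 35.1 and 25.3 TPM in those labelled WT. It was called lower (log2 fold change -0.59 with SE 0.162, edgeR adjusted p = 0.0420), the largest change of any called proteasome gene. An offset for effective length brought this to -0.35 (edgeR adjusted p = 0.129). Psmg4 had low counts, at 121 to 244 per library. With libraries thinned to the smallest total it was at -0.54 and no longer passed (edgeR adjusted p = 0.123). Psmd9 had 23.0, 24.7 and 28.9 TPM against 33.1, 33.5 and 31.1 TPM and was called lower (log2 fold change -0.30, SE 0.0831; edgeR adjusted p = 0.0447). Psmd9 stayed past the threshold under that offset, at -0.31 (edgeR adjusted p = 0.0447). With mean fragment length as a covariate, Psmg4 was at -0.12 and Psmd9 at -0.14 (edgeR adjusted p = 0.999 for both). Psmg1 and Psmg2, which work as a pair, had opposite signs, at -0.21 (SE 0.0898; edgeR adjusted p = 0.133) and 0.23 (SE 0.0873; edgeR adjusted p = 0.101). Psmg3, the partner of Psmg4, was at -0.24 (SE 0.148; edgeR adjusted p = 0.289).

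The activators open the alpha ring without the ATPases. Psme4, the large activator of the spermatoproteasome, had the highest level of this group, at 181, 165 and 162 TPM in libraries labelled DKO and 148, 124 and 135 TPM in those labelled WT. Every library labelled DKO was above every one labelled WT, and Psme4 was called higher, by 1.31-fold (log2 fold change 0.39, SE 0.101; edgeR adjusted p = 0.0377). It was 0.19 with the length and GC trends removed (edgeR adjusted p = 0.142) and 0.0073 with mean fragment length as a covariate (edgeR adjusted p = 0.999). Psme3, a nuclear activator, had 66.5, 60.2 and 60.1 TPM against 52.1, 55.1 and 55.9 TPM, also without overlap, but missed the threshold (log2 fold change 0.25, SE 0.0743; edgeR adjusted p = 0.0514). Psmf1, named for its inhibition of the core in vitro, had a log2 fold change of 0.15 (edgeR adjusted p = 0.164, SE 0.0689).

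Psme1 and Psme2 form the interferon-inducible activator and had lower levels, at 16.0 ± 0.926 against 19.1 ± 4.55 TPM and 13.8 ± 1.07 against 12.4 ± 1.53 TPM (DKO label first; mean ± SD, n = 3 each). Their log2 fold changes were -0.27 and 0.13, and neither passed. Psme2b, a copy of Psme2, was among the lowest at 0.14 to 0.95 TPM and 2 to 21 counts, and its log2 fold change of 0.43 had a standard error of 0.486. It also overlaps 9930111J21Rik1 on the same strand, so its count is uncertain. Summed over the 6 activator and inhibitor genes, the level was 355 ± 12.2 TPM in libraries labelled DKO and 309 ± 4.64 TPM in those labelled WT (SD, n = 3 each), and the groups did not overlap.

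The 6 proteasome genes called lower had a median transcript length of 905 bases and the 3 called higher 1564 bases, beside 1287 bases for the 48 tested; no test was made. The lengths interleaved, since Psmd9, called lower, has 2591 bases, more than Psmd6 (1296) and Psmc6 (1564), both called higher. Over all tested genes the median was 2623 bases, with 1442 for those called lower and 2874 for those called higher. In the class of the shortest transcripts (median 741 bases) among all tested genes, the median log2 fold change was -0.15. With the effective-length offset it was -0.02. The class with a median of 1201 bases was at -0.08, and at -0.04 with the offset. The class of the longest transcripts (median 7271 bases) was at 0.08, and at 0.05 with the offset. With that offset, 6 of the 48 proteasome genes were called, beside 9.70% of all tested genes. Of the 6, 3 were higher (Psmc6, Psmd6 and Psme4) and 3 lower (Psma7, Psmd4 and Psmd9). All 6 were among the 9 called without it. Psmb2, Psmb3 and Psmg4, the 3 that were no longer called, had transcripts of 847, 731 and 509 bases. The difference in Psma8 was 0.30 with the offset (edgeR adjusted p = 0.0547).

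**Figure D4:**
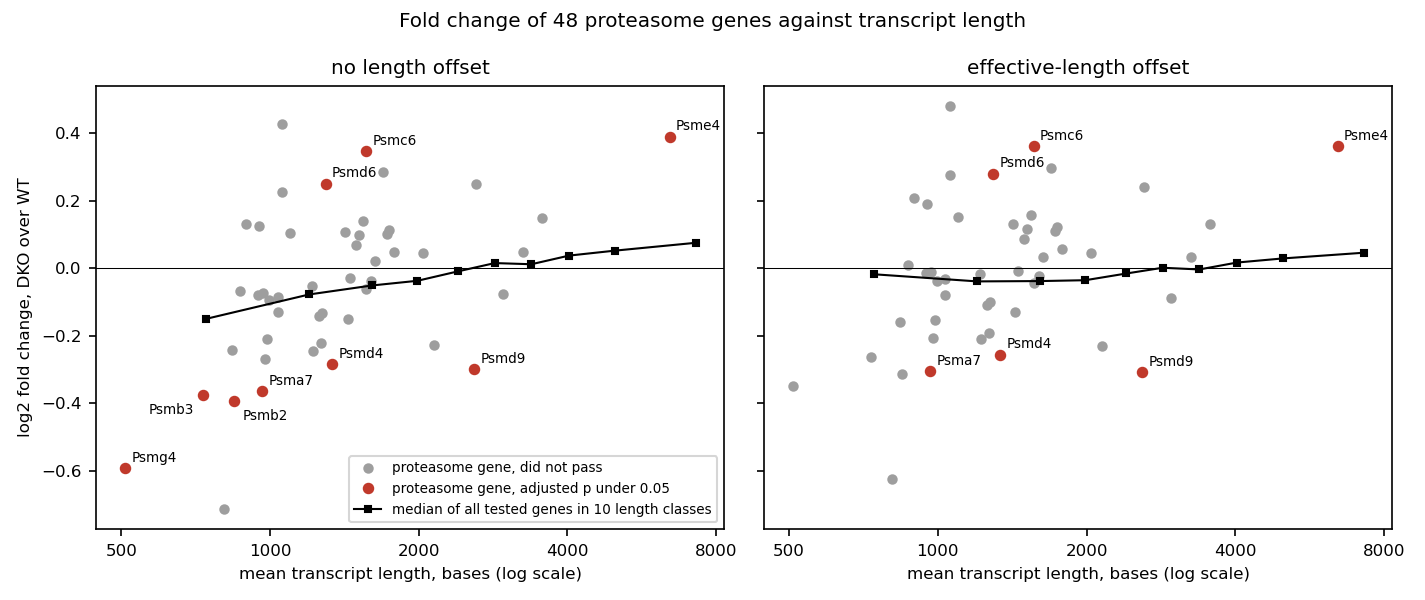
Log2 fold change of labelled DKO over labelled WT against mean transcript length on a log scale for the 48 tested proteasome genes, without (left) and with (right) an offset from each library's effective lengths. Red points had an adjusted p under 0.05, and the black line joins the medians of 10 length classes of all tested genes. At the short end the line lies at -0.15 on the left and at -0.02 on the right. At the long end it lies at 0.08 on the left and at 0.05 on the right, and 6 genes are red on the right.

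Promoters of the called genes are shown because these genes moved in different directions and the proteasome genes are known to share control by the factor encoded by Nfe2l1, which acts through antioxidant response elements. RefSeq promoter windows (GRCm38.p6, 250 bases before to 50 after the start) were found for 41 of the 49 genes and for 8 of the 9 called. Windows were searched on both strands for TGACNNNGC, the core of that element, and for CCAAT, a common promoter box. TGACNNNGC was present in 6 of the 41 genes (14.6%; Psmb5, Psmb6, Psmc6, Psmd9, Psmd12 and Psme4) and in 14% of the 27025 genes of the table. CCAAT was present in 14 of the 41 (34.1%) and in 41.1% of all. Both shares were thus near those of all promoters. The letters TAACNG or CAACNG, the core bound by MYB factors, were in 46.3% of the proteasome windows and 53.1% of all. The letters TGACGTCA, the cyclic AMP response element, were in 0 of the 41 and in 2.03% of all. The called genes with a match to TGACNNNGC or CCAAT in the 250 bases before the start follow, written 5′ to 3′ on the strand of the gene, with the matching letters in capitals (ATTGG is CCAAT on the other strand, and the capitals of Psmc6 are TGACNNNGC on the other strand).
Psma7 (chr2:180042465-180042714, minus strand): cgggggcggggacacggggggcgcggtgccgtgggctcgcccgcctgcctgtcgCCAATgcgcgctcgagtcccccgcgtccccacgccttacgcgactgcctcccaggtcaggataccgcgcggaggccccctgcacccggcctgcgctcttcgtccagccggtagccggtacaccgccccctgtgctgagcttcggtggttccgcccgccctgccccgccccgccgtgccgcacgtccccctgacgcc
Psmb3 (chr11:97703184-97703433, plus strand): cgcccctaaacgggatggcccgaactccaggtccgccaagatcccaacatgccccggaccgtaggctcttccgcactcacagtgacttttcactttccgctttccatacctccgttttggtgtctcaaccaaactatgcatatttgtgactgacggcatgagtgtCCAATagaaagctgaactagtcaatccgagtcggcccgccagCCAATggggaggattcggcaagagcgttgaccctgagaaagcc
Psmc6 (chr14:45329574-45329823, plus strand): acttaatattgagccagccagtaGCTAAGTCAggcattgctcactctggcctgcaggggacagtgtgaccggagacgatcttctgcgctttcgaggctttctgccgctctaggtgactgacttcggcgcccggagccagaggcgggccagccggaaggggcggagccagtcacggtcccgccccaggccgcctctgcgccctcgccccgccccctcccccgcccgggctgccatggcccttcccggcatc
Psmd4 (chr3:95042615-95042864, minus strand): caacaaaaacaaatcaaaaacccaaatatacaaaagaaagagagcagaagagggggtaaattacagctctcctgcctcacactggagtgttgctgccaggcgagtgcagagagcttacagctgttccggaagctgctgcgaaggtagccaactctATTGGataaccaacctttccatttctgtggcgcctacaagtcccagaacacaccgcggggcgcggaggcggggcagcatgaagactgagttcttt
Psmd9 (chr5:123227940-123228189, plus strand): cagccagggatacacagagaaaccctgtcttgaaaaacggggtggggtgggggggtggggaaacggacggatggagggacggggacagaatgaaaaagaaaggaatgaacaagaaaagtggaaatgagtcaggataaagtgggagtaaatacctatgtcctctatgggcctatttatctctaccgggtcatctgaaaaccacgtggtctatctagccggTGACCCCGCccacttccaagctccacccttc
Psma7, Psmb3 and Psmd4, all called lower, each held CCAAT and no TGACNNNGC in these bases. Among tested genes not called, CCAAT was in windows of genes with fold changes above 0 (Psma3, Psmc1, Psmc2, Psmd14 and Psme3). It was also in those of genes below 0 (Psma1, Psma2, Psma6, Psmb9 and Psmd10). Psmd9, called lower, and Psmc6, called higher, each held 1 TGACNNNGC and no CCAAT. In Psme4 the match to TGACNNNGC does not lie wholly in the 250 bases before the start and is not shown. A match is a description of the letters and not of binding.

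The genes that act with the proteasome were examined next, as a list of 42 that supply ubiquitin, load substrates or assist the particle. Of these, 40 were found and tested, and 11 were called (27.5%), 7 higher and 4 lower, beside 10.8% of all tested genes; the list median was 0.13. None was called without DKO replicate 1, WT replicate 2 or WT replicate 3, fits that called 11, 13 and 7 of all tested genes. With the effective-length offset 6 were called, beside 9.70% of all tested genes. Ubb, a polyubiquitin gene, was called lower, at 6159, 7462 and 6187 TPM in libraries labelled DKO and 8113, 9102 and 8735 TPM in those labelled WT (log2 fold change -0.38, SE 0.0995; edgeR adjusted p = 0.0390), without overlap between the groups. Rps27a, which fuses ubiquitin to a ribosomal protein, was not called (log2 fold change 0.10, SE 0.0684; edgeR adjusted p = 0.334). Ubb carried fractional counts, so its counts are less certain than those of the proteasome genes.

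Several direct partners of the particle were called higher. Pomp, the maturation factor of the core, had 92.5, 80.0 and 87.1 TPM in libraries labelled DKO and 62.0, 71.0 and 70.3 TPM in those labelled WT (log2 fold change 0.28, SE 0.0794; edgeR adjusted p = 0.0455). Uchl5, a deubiquitinase of the regulatory particle, had 54.2, 44.6 and 48.9 TPM against 38.0, 36.6 and 38.8 TPM (log2 fold change 0.42, SE 0.0842; edgeR adjusted p = 0.0263). Rad23b, which shuttles ubiquitinated proteins to the particle, was called higher at 0.32. The ubiquitin-conjugating enzyme Ube2b, which is needed for spermatogenesis, was called higher at 0.30, and the ligases Ube3a and Ube3c at 0.52 and 0.27. With mean fragment length as a covariate Ube3a turned sign, to -0.12. Shfm1, a small lid subunit, was called lower (log2 fold change -0.35, SE 0.0956; edgeR adjusted p = 0.0431), though its TPM values overlapped between the groups (511 to 603 against 587 to 649 TPM), and its transcript has 491 bases. Nfe2l1 itself was not called (log2 fold change -0.04, SE 0.0697; edgeR adjusted p = 0.742), whereas Ngly1, the glycanase that acts on its protein, was called higher (log2 fold change 0.43, SE 0.0970; edgeR adjusted p = 0.0307). Exons of Ngly1 overlap Oxsm and those of Ube3a overlap Snhg14, both on the opposite strand. Over the 16 alternatives, the lowest log2 fold change was 0.07 for Ngly1, 0.08 for Ube2b and 0.13 for Ube3c. It was 0.15 for Uchl5, 0.21 for Rad23b and 0.22 for Pomp. For the genes called lower, the value nearest 0 was -0.03 for Shfm1 and -0.26 for Ubb.

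**Figure D5:**
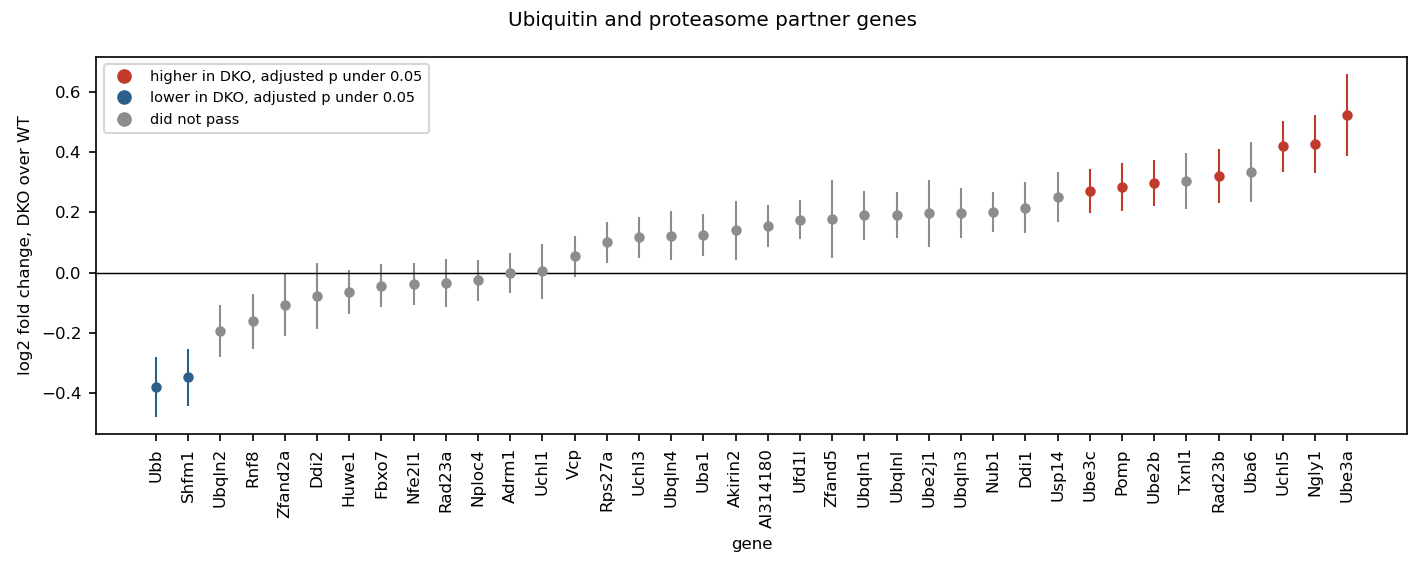
Log2 fold change of labelled DKO over labelled WT for 38 of the tested genes that act with the proteasome, ordered by size; points are edgeR estimates, bars are 1 standard error, and colour marks an adjusted p under 0.05. Ubb and Shfm1 are called lower, and Ube3a, Ngly1 and Uchl5 are the highest of the 7 called higher.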

How the data were processed

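RNA was extracted from frozen testes with Trizol and a Qiagen column and screened for integrity, per the labels' protocols. The submitters' processing notes name STAR 2.7.0f, RSEM 1.2.31, DESeq2 1.12.3 and the build mm10, without their roles. Per the file headers, the authors deposited 1 RSEM gene table per library with expected counts (estimated fragments per gene), TPM and lengths; 92.9% to 93.4% of the expected counts were whole. Expected counts were rounded and tested with edgeR 4.0.16 after filterByExpr at its defaults and TMM scaling, with genotype as the single factor in a fit of the 6 libraries. Standard errors were derived from the F statistic (size of the log2 fold change over the root of F). Values per library are TPM unless stated. The depth of at least 26753721 counts per library leaves counting error small for most proteasome genes. Counts were low for the inducible beta genes, Psmb11, Psme2b, Psmg3 (116 to 252) and Psmg4 (121 to 244). Shares of paired genes were compared by exact two-sided permutation tests.

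The members, lists and motifs were chosen with earlier results of these data known. Genes were named by a rule: Psma8, Psma7, Psmb5 to Psmb11, the activators, inhibitor and Psmg chaperones, every called member, the 3 highest and 3 lowest fold changes and levels, and the called partner genes, of which some are not reported here; values for other members are ranges, or single values chosen after they were seen (Psma3, Psma4, Psmb4, Psmd3, Psmd8, Psmd2, Psmd14). Paaf1 and Ubqln5 of the partner list matched no symbol. Alternatives were no count filter, a minimum mean count of 50, DESeq2 size factors, an effective-length offset, mean fragment length as a covariate, DESeq2 1.42.0, limma 3.58.1 on log2(TPM + 1) and log2(TPM + 0.1), thinning to the smallest total, leaving out each library and, chosen after seeing the data, removal of trends on length and GC content (mgcv 1.9.3; GC from GENCODE M21 transcripts for 97.8% of genes). The deposited FPKM was not used. No library was a repeat of another: chi-square over its degrees of freedom was 6.36 or more for each pair. Replicate numbers follow deposition order and pair nothing. Positions and exon overlaps come from RefSeq GRCm38.p6 and GENCODE M21.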

Additional observations from a re-analysis of the deposited data

Results flagged for a closer look

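The deposited lengths, which the edgeR fit without an offset does not use, gave 1 value that stood above all libraries labelled WT. The abundance-weighted transcript length of Psmd10, an assembly chaperone with 2 annotated transcripts, had a mean of 1452 bases in libraries labelled DKO and 1450.5 bases in those labelled WT, a difference of 1.45 bases (SD 1.06 and 0.369, n = 3 each; exact permutation p = 0.1, as low as 3 against 3 libraries can give). Of the 7 proteasome genes with several transcripts it was the only one without overlap, and 16.8% of the 4458 tested genes of that kind had none.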

How the results depend on the processing

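No paired analysis was possible because the labels give the libraries no shared replicate numbers. When each library was left out in turn, the number of called genes ranged from 7 to 3029 over all genes, from 0 to 10 among proteasome genes (0 to 4 higher, 0 to 7 lower) and from 0 to 13 among partner genes. Adding mean fragment length as a covariate, whose values separate the groups, left 1 gene called over all genes and 0 among proteasome genes (0 higher, 0 lower) and partners. Removing trends on length and GC content, an alternative chosen after seeing the data, left 552 called over all, 0 proteasome genes (0 higher, 0 lower) and 2 partners. DESeq2, run without the count filter on 21125 genes, called 2895 genes over all (13.7%), with 5 proteasome genes higher and 7 lower. Limma on log2(TPM + 1) called 735 genes over all, 1 proteasome gene (0 higher, 1 lower) and 4 partners. On log2(TPM + 0.1) it called 947 over all, 3 proteasome genes (1 higher, 2 lower) and 5 partners. The unfiltered fit called 2321 genes over all, with 5 proteasome genes higher. The effective-length offset left 1659 genes called over all, with 3 proteasome genes lower and 6 partners. The cause of these differences was not tested.

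Of 603 values of single genes under an alternative, 17 changed sign. With mean fragment length as a covariate these were Psma8 (-0.0534), Psmb5 (0.2227), Psmb7 (0.0205), Psme1 (0.1101), Psme2b (-0.1454), Psmb2 (0.05), Psmb3 (0.0558), Psmc2 (-0.0822), Psmc3 (-0.0297) and Ube3a (-0.1188). Psmb5 also changed with the effective-length offset (0.0095) and, with the trends removed, to 0.1307, as did Psmb6 to 0.0309. Psmc3 changed to -0.0122 on both TPM scales. Without single replicates, Psmc3 ranged from -0.0163 to 0.0522 and Psmb10 from -0.431 to 0.0038. The share of Psmb10 differed by -0.403 to 0.0393 percentage points in those fits, and that of Psma8 by 7.01 to 10.7.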
